A study of Mus musculus with 12 samples.

Results

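Heart muscle genes can be read in whole lung. The myocardium of the left atrium extends along the pulmonary veins of the mouse as sleeves of striated muscle, a possible source. In these cells calcium released from the sarcoplasmic reticulum binds troponin on the thin filament, which lets the myosin motors of the thick filament pull. Atrial muscle is known for its own light chains (Myl4 and Myl7), for the calcium pump regulator sarcolipin (Sln) and for the secreted hormone ANP (Nppa). The 10 genes described here are Myh6, Myl4, Myl7, Nppa, Tnnt2, Tnni3, Actc1, Sln, Ryr2 and Myl3. They were taken by symbol from a table of 55414 genes. Each had 1 row, and all 10 were among the 15148 genes tested.

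The lungs came from 12 mice on a C57BL/6J background, each given lipopolysaccharide (LPS), a bacterial cell wall component used to induce acute lung injury (ALI), at 50 µg in the study's model, and were taken on day 4. In the IL-10 B-KO mice, 6 in number and called knockout from here on, Mb1-Cre, active from early B cell development onwards, deletes the floxed Il10 gene. The other 6 were IL-10 B-WT mice, called control, described as wild type, with no alleles given in the sources used here. Lungs are numbered 1 to 6 within each genotype. The ages are not given in those sources, and no lung without LPS is part of the comparison. Expression was given as TPM, a transcript abundance divided by gene length and brought to the same total in every library, so that levels of different genes can be compared. How many reads lie behind a value is unknown.

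Facts of the whole set of libraries bear on these genes only in part. The targeted gene, Il10, lay between 0 and 0.88 TPM in control and between 0 and 0.58 TPM in knockout lungs, so that these values did not separate the genotypes. It stayed under 1 TPM in every lung and was not tested. The paper reported lower lung IL-10 mRNA and protein in knockout mice after LPS, from separate measurements. Immunoglobulin genes took 0.248% to 15.4% of the TPM of control lungs and 0.00205% to 0.0648% of knockout lungs.

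Promoter sequence is shown for the 3 members whose level varied most between lungs of the same genotype, Myl7, Nppa and Myh6, and for 2 more that hold the CArG box, the site read by serum response factor in muscle genes. Each line gives the 150 bases before the transcription start, 5′ to 3′ on the gene's strand, from RefSeq on GRCm38.p6. For Myh6, Actc1 and Myl3 the window lies inside the GENCODE gene span given below, so that the start used is not the outer end of the gene. Capitals mark matches to GATA, CArG and MCAT motifs on either strand.
Myl7 (chr11:5898783-5898932, minus strand): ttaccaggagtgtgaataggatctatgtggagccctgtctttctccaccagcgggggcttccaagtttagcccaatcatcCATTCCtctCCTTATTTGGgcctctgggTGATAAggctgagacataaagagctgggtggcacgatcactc
Nppa (chr4:148000572-148000721, plus strand): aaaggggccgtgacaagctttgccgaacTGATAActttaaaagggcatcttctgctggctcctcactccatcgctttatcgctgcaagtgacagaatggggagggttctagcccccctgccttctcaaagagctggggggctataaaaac
Myh6 (chr14:54966608-54966757, minus strand): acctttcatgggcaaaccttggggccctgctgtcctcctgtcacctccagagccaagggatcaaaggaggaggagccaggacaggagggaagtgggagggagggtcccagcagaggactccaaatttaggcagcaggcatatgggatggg
Actc1 (chr2:114052876-114053025, minus strand): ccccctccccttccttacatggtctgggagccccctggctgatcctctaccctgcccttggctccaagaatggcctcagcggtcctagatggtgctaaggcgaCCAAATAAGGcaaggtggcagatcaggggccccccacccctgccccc
Myl3 (chr9:110763528-110763677, plus strand): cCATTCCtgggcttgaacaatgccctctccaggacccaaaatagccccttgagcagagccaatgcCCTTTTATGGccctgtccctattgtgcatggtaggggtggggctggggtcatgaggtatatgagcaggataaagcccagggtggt

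The CArG box was found before 3 of the 9 members with a sequence (Myl7, Actc1 and Myl3), against 0.916% of 32851 windows of the same length. MCAT (CATTCC) was found before 3 members (Myl7, Tnnt2 and Myl3) and in 7.59% of windows. GATA (the core GATA with A or T before it and A or G after it) was found before 2 members (Myl7 and Nppa) and in 16.0% of windows. The E-box (CANNTG) was before 5 members and in 47.7% of windows, and is not capitalised. The MEF2 motif and NKX2-5 (TNAAGTG) had 0 matches before the members, with 1.67% and 5.86% of windows holding them. The capitalised motifs do not overlap each other. These are matches of letters and not measured sites.

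Taken as a group, the 10 genes made up very different parts of the 12 libraries. Their summed TPM ran from 31.97 in knockout lung 6 to 1885.69 in control lung 4, a 59.0-fold range. In control lungs 1 to 6 the sums were 135.37, 760.56, 79.51, 1885.69, 1360.62 and 286.62 TPM. In knockout lungs 1 to 6 they were 509.25, 125.95, 197.7, 430.53, 211.67 and 31.97 TPM. The 3 highest lungs were control lungs 4, 5 and 2, but control lung 3 had the second lowest sum, so that the genotypes overlapped. The mean was 751.4 ± 735.5 TPM in control and 251.2 ± 182.7 TPM in knockout lungs (SD, n = 6 each). In whole lung, fewer cells of a type and less RNA per cell cannot be told apart.

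**Figure D1:**
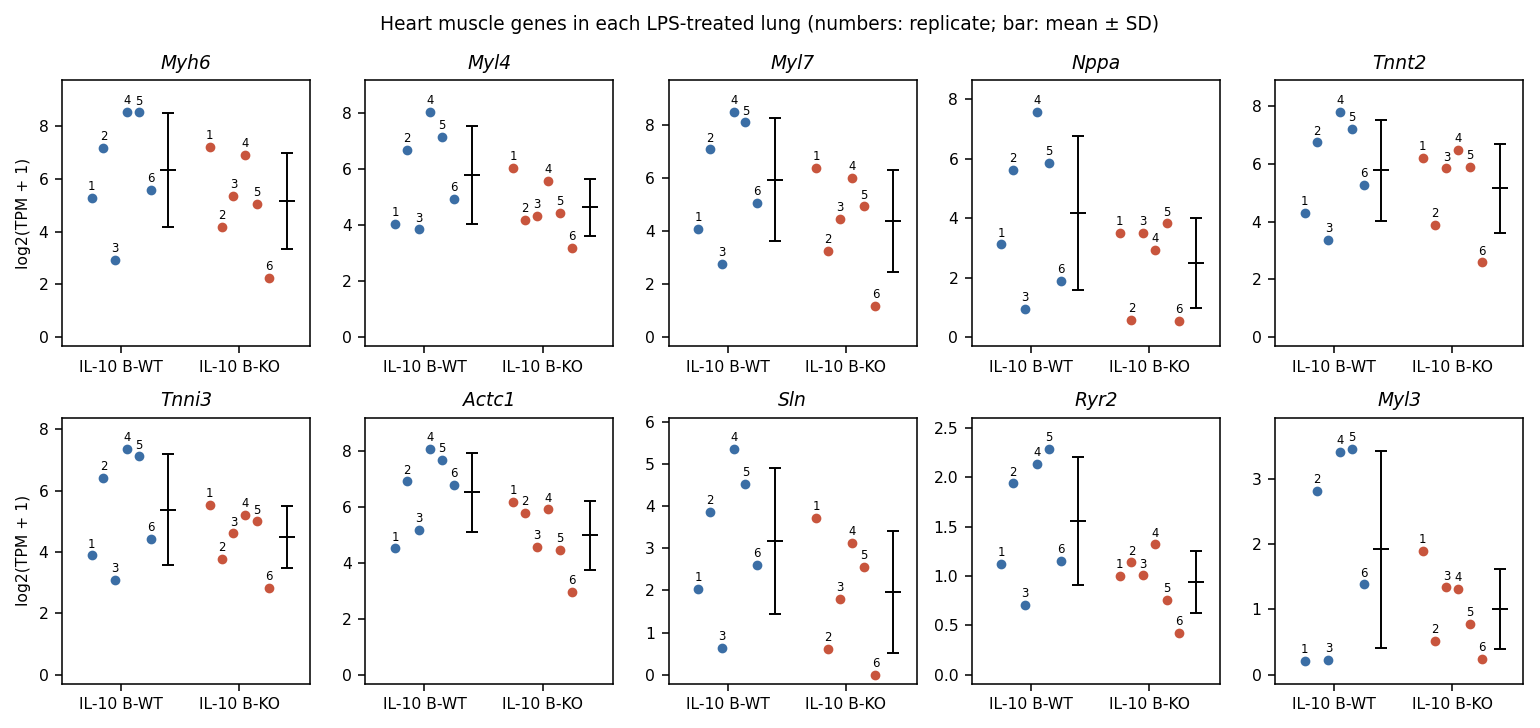
Expression of the 10 heart muscle genes as log2(TPM + 1), 1 panel a gene and 1 point a lung, numbered by replicate, with the mean and SD of the 6 lungs of each genotype. Control lungs 4 and 5 are among the 3 highest lungs for all 10 genes, and knockout lung 6 is the lowest for 9 of them.

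Of the 10 genes, 0 passed an adjusted p of 0.05 (limma, Benjamini-Hochberg over 15148 genes) together with a change of at least 1 on the log2 scale, where 0.495% of all genes tested did. All 10 had a lower mean log2(TPM + 1) in knockout lungs, as did 5568 of all 15148 genes tested. The median log2 fold change of the 10 was -1.17, against 0.10 over all genes tested. Since the 10 genes varied together across lungs, this shared direction does not count as 10 separate observations. At an unadjusted p of at most 0.05, 2 of the 10 were lower, Actc1 and Ryr2, where 5.71% of all genes were. The TPM ranges of the genotypes overlapped for each of the 10, and 1.02% of all genes tested had ranges that did not. For the 8 members other than Actc1 and Ryr2 the two-sided exact permutation p ran from 0.188 to 0.515. Gene positions are those of GRCm38.

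The myosin of the thick filament was among the most abundant and the most variable. Myh6 (ENSMUSG00000040752, chr14:54941921-54966927, minus strand), the fast myosin heavy chain of adult mouse heart, was at 37.75, 144.54, 6.67, 372.11, 366.94 and 47.12 TPM in control lungs 1 to 6. It was at 146.39, 16.96, 39.84, 119.03, 32.07 and 3.76 TPM in knockout lungs 1 to 6. Only control lungs 4 and 5 were above every knockout lung, and knockout lung 6 alone was below every control lung. The log2 fold change was -1.19 (95% confidence interval -3.35 to 0.98, limma adjusted p = 0.606), and the exact permutation p was 0.318. Reads may be shared with Myh7, its close relative on the same chromosome, and Myh7 was at 2.65 to 10.85 TPM.

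Myl7 (ENSMUSG00000020469, chr11:5896637-5898782, minus strand), the regulatory light chain of atrial myosin, was at 15.77, 133.95, 5.72, 358.56, 271.54 and 32.46 TPM in control lungs. In knockout lungs it was at 82.99, 8.54, 21.06, 62.9, 29.4 and 1.26 TPM. Its highest value was 284.6 times its lowest, and 3 control lungs were above all knockout lungs. Its log2 fold change was -1.55 (95% confidence interval -3.85 to 0.74, limma adjusted p = 0.532).

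The essential light chain of atrial myosin, Myl4 (ENSMUSG00000061086, chr11:104550663-104595753, plus strand), was at 15.59, 100.6, 13.37, 261.75, 140.03 and 29.49 TPM in control lungs. The knockout lungs had 64.79, 17.27, 19.23, 46.84, 20.6 and 8.07 TPM. Control lung 2 lay above every knockout lung, with lungs 4 and 5, and the log2 fold change was -1.15 (95% confidence interval -2.70 to 0.40, limma adjusted p = 0.502).

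Myl3 (ENSMUSG00000059741, chr9:110741861-110769798, plus strand) encodes the essential light chain of ventricular and slow skeletal myosin, and was much lower than Myl4 and Myl7. It was at 0.16, 6.08, 0.17, 9.68, 10.01 and 1.61 TPM in control lungs and at 2.72, 0.43, 1.53, 1.49, 0.71 and 0.18 TPM in knockout lungs. Its 2 lowest values were both in control lungs. Its log2 fold change was -0.91 (limma adjusted p = 0.512).

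On the thin filament, Tnnt2 (ENSMUSG00000026414, chr1:135836354-135852260, plus strand), the troponin subunit that binds tropomyosin, was at 18.61, 106.39, 9.35, 222.61, 146.84 and 38.05 TPM in control lungs. In knockout lungs it was at 72.61, 13.83, 56.36, 89.34, 58.29 and 5.01 TPM. The medians of control and knockout lungs were 72.22 and 57.33 TPM, and the log2 fold change was -0.63 (95% confidence interval -2.42 to 1.16, limma adjusted p = 0.745).

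Tnni3 (ENSMUSG00000035458, chr7:4518305-4524229, minus strand), the inhibitory troponin subunit of heart, was at 13.76, 84.72, 7.42, 161.67, 137.56 and 20.63 TPM in control lungs. The knockout lungs had 45.19, 12.55, 23.28, 36.07, 30.86 and 6.09 TPM. Its log2 fold change was -0.89 (limma adjusted p = 0.598), and its r with Myl7 across the lungs, with genotype means subtracted, was 0.98.

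Actc1 (ENSMUSG00000068614, chr2:114047282-114053548, minus strand), the actin of the cardiac thin filament, behaved in part differently from the other 9. Its TPM were 21.76, 118.99, 34.7, 264.95, 204.5 and 108.25 in control lungs and 70.91, 54.14, 22.55, 59.03, 20.91 and 6.79 in knockout lungs. Here 4 control lungs were above every knockout lung, and 2 knockout lungs were below every control lung. The log2 fold change was -1.54 (95% confidence interval -2.97 to -0.11), with an unadjusted limma p of 0.0363 and an adjusted p of 0.375. The two-sided exact permutation p was 0.0736, and the smallest this design can give is 0.00217. Its unadjusted p was above 0.05 without any 1 of 7 lungs, control lungs 2, 4, 5 and 6 and knockout lungs 3, 5 and 6, and was 0.007025 without control lung 1. The actin genes are nearly identical in their coding sequence, so that reads of Acta1, Acta2 and Actg2 may be split with Actc1, and its level is uncertain.

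Ryr2 (ENSMUSG00000021313, chr13:11553102-12106945, minus strand), the release channel of the sarcoplasmic reticulum, was low in every lung. It was at 1.18, 2.84, 0.63, 3.4, 3.88 and 1.22 TPM in control lungs and at 1, 1.2, 1.01, 1.5, 0.69 and 0.34 TPM in knockout lungs. The 3 lungs above all knockout lungs were again control lungs 2, 4 and 5. The log2 fold change was -0.62 (95% confidence interval -1.21 to -0.02), with an unadjusted limma p of 0.0442, an adjusted p of 0.381 and an exact permutation p of 0.0758. The unadjusted p was above 0.05 without any 1 of 7 lungs, control lungs 2, 4 and 5 and knockout lungs 1, 3, 5 and 6, and also with a pseudocount of 0.1, no filter, quantile normalization, median centring or array quality weights.

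Sln (ENSMUSG00000042045, chr9:53850164-53854560, plus strand), which slows the calcium pump of atrial muscle, was at 3.1, 13.52, 0.56, 40.03, 22.11 and 5.1 TPM in control lungs. It was at 12.28, 0.52, 2.5, 7.72 and 4.91 TPM in knockout lungs 1 to 5 and was listed at 0 in lung 6. Its log2 fold change was -1.20 (limma adjusted p = 0.525).

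Nppa (ENSMUSG00000041616, chr4:148000722-148002079, plus strand), the precursor of atrial natriuretic peptide, had the widest range of the 9 genes above 0 in every lung. It was at 7.69, 48.93, 0.92, 190.93, 57.21 and 2.69 TPM in control lungs and at 10.37, 0.51, 10.34, 6.61, 13.23 and 0.47 TPM in knockout lungs. The highest value was 406.2 times the lowest, and control lung 4 stood apart from the next highest lung, at 57.21 TPM. The log2 fold change of -1.69 had a 95% confidence interval of -3.97 to 0.60 (limma adjusted p = 0.503).

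The spread between lungs of the same genotype was large for most of these genes. The SD of log2(TPM + 1) within genotypes was 2.13 for Myl7, 2.12 for Nppa and 2.01 for Myh6, wider than in 99.56%, 99.55% and 99.41% of the genes tested. It was narrowest for Ryr2, at 0.51, which was wider than in 70.3%. Low values compress this scale, so that the SD of Ryr2, Myl3 and Sln understate their relative spread.

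The members varied together. After the genotype mean was subtracted, Pearson's r across the 12 lungs ran from 0.60 to 0.98 over the 45 pairs, with a median of 0.90. It was lowest for Nppa with Actc1 and highest for Myh6 with Myl7. For the 9 pairs with Actc1 the median was 0.82, and for the other 36 pairs it was 0.91, with Spearman's rho from 0.77 to 0.99. All points share their libraries, so that these correlations are given as a description.

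The make-up of the group was less even than the correlations alone show. Actc1 held 9.88% to 16.1% of the summed TPM in 8 lungs, but 43.6% in control lung 3, 37.8% in control lung 6, 43.0% in knockout lung 2 and 21.2% in knockout lung 6. Those 4 lungs had sums from 31.97 to 286.62 TPM, while knockout lungs 3 and 5, with sums of 197.7 and 211.67 TPM, held 11.4% and 9.88%. A ratio of Actc1 to Myl7 of 6.07, 3.33, 6.34 and 5.39 set the same 4 lungs apart, against 0.71 to 1.38 in the others. Nppa held 10.1% of the sum in control lung 4 and 0.405% in knockout lung 2. The ratio of Tnnt2 to Myl7 was 0.54 to 1.64 in control and 0.87 to 3.98 in knockout lungs, which overlapped.

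**Figure D2:**
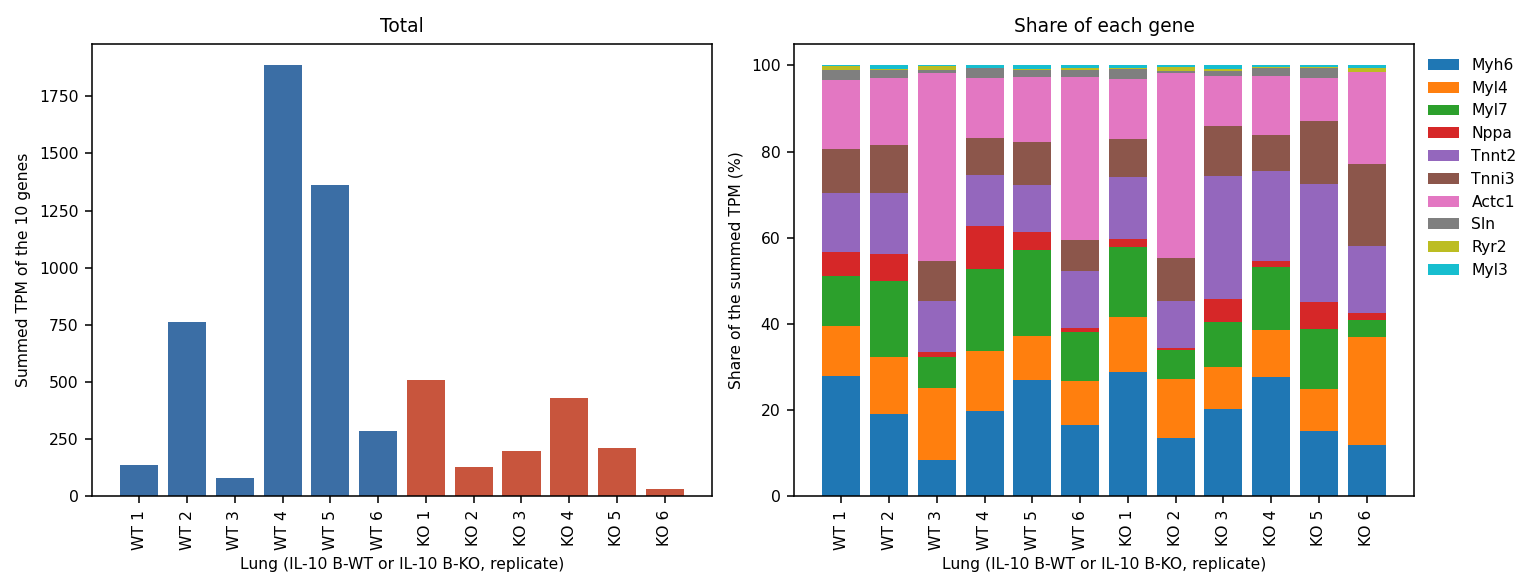
Left, the summed TPM of the 10 genes in each lung, control in blue and knockout in red. Right, the share of each gene in that sum, in percent. The sum runs from 31.97 to 1885.69 TPM, and the share of Actc1 stands above 20% in 4 lungs, 2 of each genotype.

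Most other genes of the heart muscle cell moved with the members. Of 22 further sarcomere genes, 16 were tested, and all 16 had a lower mean in knockout lungs, the median of the log2 fold changes being -0.46. At an unadjusted p of 0.05 1 of them was lower, Des, the intermediate filament protein desmin of all muscle, at 32.78 to 122.17 TPM in control and 14.39 to 62.84 TPM in knockout lungs (log2 fold change -0.89, limma adjusted p = 0.381). The centred mean of these 16 genes had a Pearson's r of 0.99 with that of the members over the 12 lungs, and 0.99 without control lung 3 and knockout lung 6, the 2 lungs farthest from the median. Single genes of the list did not follow, among them Nebl (r = -0.49), Cryab (r = 0.06) and Myh7 (r = 0.10, log2 fold change -0.02), all expressed at 2.65 TPM or more in every lung.

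Each member was also fitted with the heart muscle content of the lung as a covariate, the mean log2(TPM + 1) of 13 other sarcomere genes, which was 1.64 to 3.83 in control and 1.28 to 2.95 in knockout lungs. With it, the log2 fold change of Myl7 was -0.23 (95% confidence interval -0.75 to 0.28), that of Nppa -0.43 (-1.32 to 0.46) and that of Myl4 -0.28 (-0.80 to 0.24). For Myh6, Tnni3 and Tnnt2 it changed sign, to 0.03, 0.02 and 0.38. The largest that remained was for Actc1, -0.89 (95% confidence interval -1.88 to 0.11, limma adjusted p = 0.704). The SD of Myl7 within genotypes was 0.40 after the covariate, that of Tnni3 0.24 and that of Actc1 0.85. Since the covariate is made of genes that differ in the same direction, this fit removes any difference that all heart muscle genes share.

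**Figure D3:**
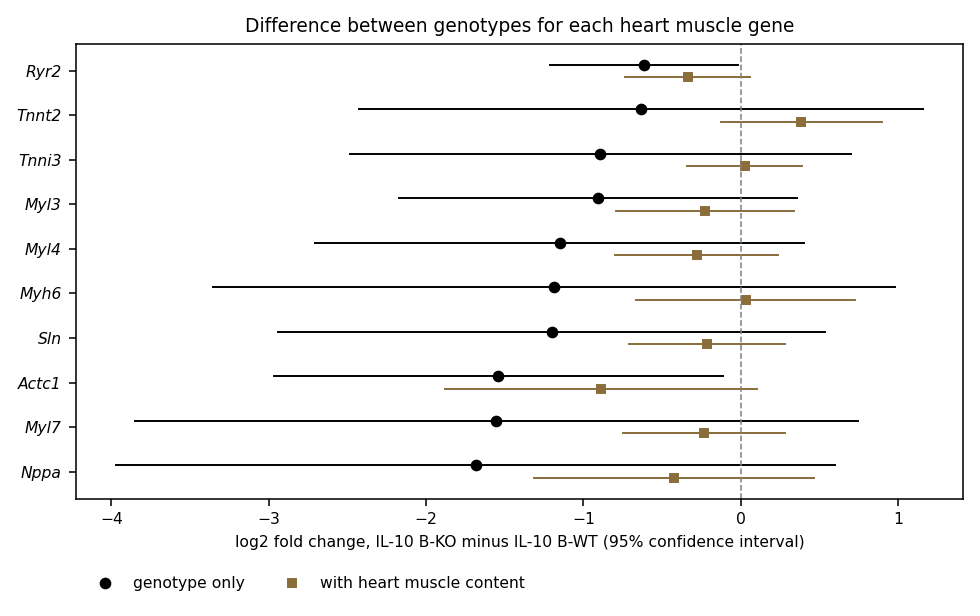
Log2 fold change of each gene, knockout minus control, with its 95% confidence interval from limma, with genotype only (black circles) and with heart muscle content as a covariate (brown squares). With genotype only, the intervals of 8 of the 10 genes reach across 0, and those of Actc1 and Ryr2 end at -0.11 and -0.02. With the covariate all 10 reach across 0.

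Genes listed for energy supply in heart muscle mostly followed the same lungs. The list also holds Actn2, already counted among the sarcomere genes, and the heat shock protein Hspb7, which was among the 3 higher. All 14 on the list were tested, 11 of them lower and 3 higher on average in knockout lungs, the median of the log2 fold changes being -0.62, and at an unadjusted p of 0.05 2 were lower and 1 higher. Ckm, the muscle creatine kinase, was at 1.95, 11.7, 0.42, 31.9, 26.63 and 4.27 TPM in control and 4.44, 0.46, 0.51, 3.17, 0.37 and 0.36 TPM in knockout lungs (log2 fold change -1.90, limma adjusted p = 0.333). Eno3, the enolase of muscle, was lower by the same measure (log2 fold change -0.56, adjusted p = 0.334), and Ldhd, a D-lactate dehydrogenase, was higher (0.34, adjusted p = 0.342). Mb, the oxygen store myoglobin, was at 0.81 to 186.21 TPM in control and 0.19 to 24.22 TPM in knockout lungs (log2 fold change -2.37, adjusted p = 0.406).

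Among 18 genes of calcium handling and excitation, 10 were tested, 8 lower and 2 higher, and 3 were lower at an unadjusted p of 0.05, Jph2 and Cacna1c among them. Jph2, which holds the sarcoplasmic reticulum to the cell membrane, had a log2 fold change of -0.84 (adjusted p = 0.280) and an r of 0.83 with the members. Cacna1c, the L-type calcium channel, lay between 7.2 and 10.4 TPM in control and between 3.96 and 6.24 TPM in knockout lungs, with no overlap (log2 fold change -0.66, limma adjusted p = 0.0719). Its r with the members was -0.14, so that it did not follow them from lung to lung. Pln, the calcium pump inhibitor phospholamban, and Casq2, the calcium store protein of heart, had an r of 0.93 each and did not pass.

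The 10 genes outside the members with the pattern most like theirs, among them Myl1, Mybphl, Ephx2, Csrp3, Ckmt2, Tnnc1, Art1, Lmod2 and Mb, had r from 0.96 to 0.99 over the 12 lungs. Myl1, a light chain known from fast skeletal muscle, came first (r = 0.99), and Mybphl, a myosin-binding protein known for atrial muscle, came next (r = 0.97). Mybphl was at 1.31, 9.7, 0.23, 22.06, 15.09 and 1.01 TPM in control and 5.39, 0.15, 1.92, 4.89, 3.01 and 0.06 TPM in knockout lungs. Without the 2 farthest lungs these 10 genes had r from 0.94 to 0.98. In all, 32 of the 15138 other genes tested had an r of at least 0.9, of which 20 are on the heart and skeletal muscle lists, and 0 had an r of -0.9 or below. Ephx2, a soluble epoxide hydrolase, and Hamp, the iron hormone hepcidin, are among the 12 that are not on those lists.

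Markers of chamber and cell type were set beside the name given to these genes. Of the ventricular genes, Myl2, the ventricular light chain, was at most 1.31 TPM, and Irx4 was listed at 0 in every lung. Others on the list of 8 were present, namely Myh7 at 2.65 to 10.85, Irx3 at 5.52 to 26.71, Irx5 at 4.03 to 13.81, Lbh at 44.83 to 120.09 and Hey2 at 0.62 to 2.37 TPM, and the centred mean of the 5 tested had an r of -0.04 with the members. Myl2, Irx4 and Kcne1 were too low to be tested, and which cells express the 5 tested is unknown in whole lung. This r therefore cannot show whether ventricular muscle was present. The atrial genes Myl7, Myl4, Sln, Nppa and Mybphl were present. So was the member Myl3, described above as a light chain of ventricular and slow skeletal myosin, at 0.16 to 10.01 TPM. Its r with the mean of the members, itself included, was 0.94. The factor Nkx2-5, known for pulmonary vein myocardium, was at most 0.78 TPM, and the pacemaker channel Hcn4 at most 0.44 TPM. The table holds no gene that sets the muscle of the lung veins apart from atrial muscle attached to an excised lung, so that these sources cannot be told apart. Of 8 vein endothelium genes, 3 were lower and 5 higher on average in knockout lungs, and their centred mean had an r of -0.36 with the members.

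Transcription factors of heart are expressed by other lung cells too. Of 16, 7 were tested, and 4 were lower at an unadjusted p of 0.05, Tbx5, Tbx3, Nr2f1 and Hey2. Tbx5, also a factor of lung mesenchyme, was at 10.3 to 19.15 TPM in control and 2.64 to 9.06 TPM in knockout lungs without overlap (log2 fold change -1.19, limma adjusted p = 0.0568). Nr2f1 had a log2 fold change of -1.18 (adjusted p = 0.0981), Tbx3 of -0.66 (adjusted p = 0.328) and Hey2 of -0.41 (adjusted p = 0.364). Their r with the members ran from 0.00 for Tbx3 to 0.60 for Nr2f1.

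Natriuretic peptide genes other than Nppa followed the members unevenly. Of 13 natriuretic and stress genes 9 were tested and 3 were lower at an unadjusted p of 0.05, namely Npr3, the clearance receptor (log2 fold change -1.43, adjusted p = 0.351), Pam, the peptide-amidating enzyme held in atrial granules (-0.69, adjusted p = 0.185), and Dkk3 (-0.59, adjusted p = 0.381). Their r with the members was 0.09, 0.50 and 0.59, and that of the centred mean of the 9 genes, Mybphl among them, was 0.79. Nppb, which encodes the related peptide BNP, was at most 0.58 TPM, and neither it nor Corin was tested. Corin, the protease that activates ANP, was at 0.17, 0.68, 0.23, 1.08, 0.98 and 0.28 TPM in control lungs and at 0.17, 0.22, 0.29, 0.52, 0.37 and 0.12 TPM in knockout lungs, so that its highest lungs were those of the members.

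Markers of other tissues that can be excised with a lung were set beside these values. Fast skeletal myosins Myh1, Myh2 and Myh4 were at most 0.15 TPM, and Myod1 and Myog were listed at 0 in all lungs. The summed level of the 18 skeletal muscle genes was 22.4 to 69.3 TPM in control and 23.4 to 52.7 TPM in knockout lungs. Of the 7 tested, Tnni2 reached 30.23 TPM (r 0.09 with the members), Tnnt3 25.03 TPM (r 0.80) and Myl1 16.1 TPM (r 0.99), and the r of their centred mean was 0.93. The 8 oesophagus genes summed to at most 2.76 TPM, with 0 of them tested. Mesothelium, the covering of the lung, went the other way, with a higher mean in knockout lungs for all 6 genes tested and an r of 0.12 with the members. At an unadjusted p of 0.05 4 were higher, Msln (log2 fold change 1.76), Lrrn4 (1.20), Upk3b (1.11) and Krt19 (0.75), with limma adjusted p from 0.132 to 0.393. Of all 15148 genes tested, 9580 had a higher mean in knockout lungs, and 1034 were higher at that p. Of the thymocyte genes 3 were tested and 0 passed an unadjusted p of 0.05, and Rag1 and Rag2 were at most 0.04 TPM. Of 4 neuron and Schwann cell genes tested, 1 was lower and 1 higher at an unadjusted p of 0.05, the latter Uchl1 (log2 fold change 0.71).

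Fat cell genes moved with the members. Of 8, 6 were tested, 5 lower and 1 higher on average in knockout lungs, with 0 at an unadjusted p of 0.05, and their centred mean had an r of 0.86 with the members (rho 0.84, and r 0.84 without the 2 farthest lungs). Their sum was 12.95 to 575.6 TPM in control and 36.3 to 136.9 TPM in knockout lungs. Adipoq, the hormone adiponectin, was at 22.44 and 41.8 TPM in control lungs 4 and 5, the lungs highest in the members, and at most 7.12 TPM elsewhere. Ucp1, which defines brown fat, was at most 0.09 TPM. Cidea, also known from brown fat, was at 4.1 and 2.91 TPM in control lungs 4 and 5, with an r of 0.71 with the members. The part of attached tissue in the differences between lungs was not tested.

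Genes of smooth muscle and pericytes, the cells that wrap vessels, were also lower in knockout lungs. Of 10 smooth muscle genes all had a lower mean and 6 passed an unadjusted p of 0.05, with 0 passing both thresholds, and their sum was 444.0 to 1519 TPM in control and 214.2 to 812.2 TPM in knockout lungs. For Mylk, the myosin light chain kinase of smooth muscle, the log2 fold change was -0.91 and the limma adjusted p was 0.0438. Of 12 pericyte genes 10 passed an unadjusted p of 0.05, and 7 of these fell past both thresholds, with log2 fold changes from -1.26 for Angpt1 to -2.07 for Gucy1a1. Of all genes tested, 5.71% were lower at that p and 0.495% passed both thresholds in either direction. Kcnj8 (log2 fold change -0.17) and Abcc9 (-0.45) did not pass. The list holds Pde5a, Pdgfrb and Angpt1, which the paper reported as lower in knockout lungs from these same libraries. Its counts are therefore not independent of that result. The r of the centred list means with the members was 0.75 for smooth muscle and 0.70 for pericytes, and 0.52 and 0.42 without the 2 farthest lungs. The count of 7 was 0 with no filter, quantile normalization, median centring, the heart muscle covariate or the replicate block, 4 when rescaled without immunoglobulin genes, and 0 to 9 with 1 lung left out (0 without knockout lung 1 or 5, 1 without control lung 4, 5 or 6, 2 without knockout lung 3, 3 without control lung 2, and 4 without knockout lung 6). The part of these cells in the lower values of the heart muscle genes was not tested.

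**Figure D4:**
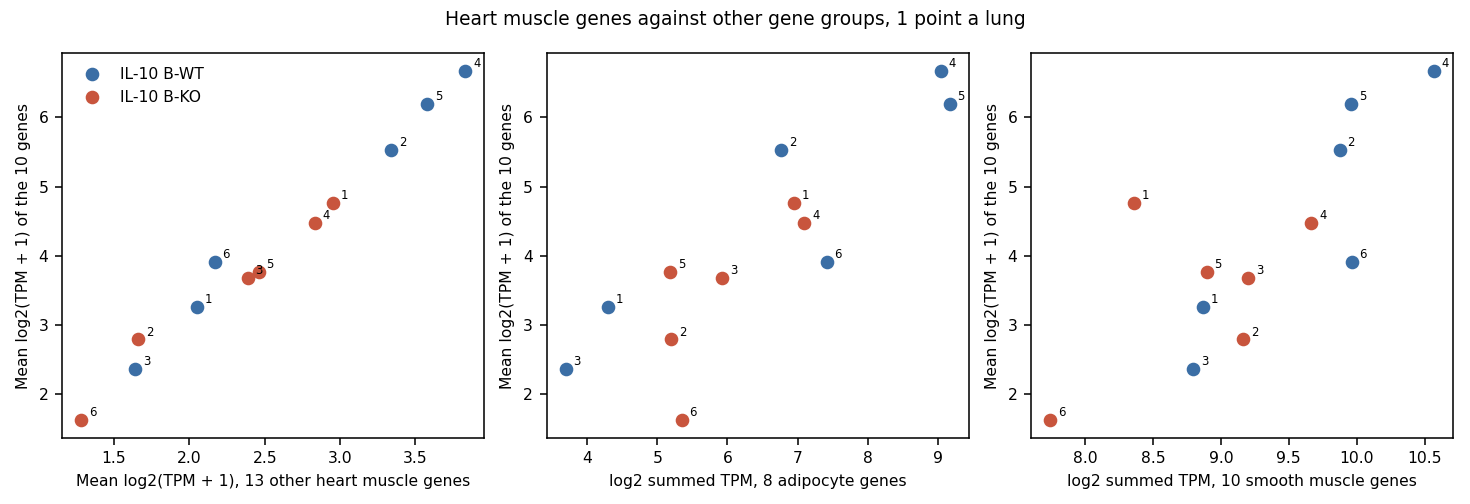
Mean log2(TPM + 1) of the 10 genes in each lung against the mean of 13 other heart muscle genes, the log2 summed TPM of 8 adipocyte genes and that of 10 smooth muscle genes, with control in blue, knockout in red and replicate numbers beside the points. The lungs lie close to 1 line with the other heart muscle genes and scatter more with the fat and smooth muscle genes.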

How the data were processed

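Whole-lung RNA of 12 mice was analyzed, 6 labelled IL-10 B-WT (control) and 6 labelled IL-10 B-KO (knockout) in the genotype field. The authors deposited TPM per gene, 1 column a library without pooling. The submitters' processing notes name fastp, HISAT, RSEM and GRCm38.p5, with no versions. TPM keep no depth, so that precision rests on the spread between lungs, and no count model was fitted. No label names a culture, litter or batch.

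Values were analyzed as log2(TPM + 1) with limma 3.58.1 in R 4.3.3 (trend, genotype only) over the 15148 genes that reached 1 TPM in 6 or more libraries, with Benjamini-Hochberg adjustment. Calls needed an adjusted p of 0.05 and an absolute log2 fold change of 1. Fold changes on this scale understate changes of low genes. For single members, an exact permutation test (two-sided) was added. The fit was tested on simulated data in which genes varied independently of each other, unlike the members here. Correlations used values with the genotype mean subtracted. The members and lists were chosen with earlier results of these data known. Named genes were all members, list genes at an unadjusted p of 0.05 or defining a list, and the 10 genes most like the members. Hamp, Pln and Casq2 were named after their values were seen. Some genes that these rules would name are not reported here.

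Other settings were each library left out, heart muscle content as a covariate, a block for the replicate number, quality weights, centring on the median, quantile normalization, rescaling without muscle or immunoglobulin genes, another pseudocount (0.1) and other filters (none, or an average of 5 TPM). Gene coordinates are GENCODE M21 on GRCm38, and promoters are from RefSeq. Protein sequences and a promoter of Sln were not used here. Tables were handled with pandas 2.3.3 and SciPy 1.17.1 in Python 3.11.15, and plots made with matplotlib 3.10.9.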

Additional observations from a re-analysis of the deposited data

How the results depend on the processing

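The count of members past the adjusted p and fold thresholds was 0 under each of the 22 alternatives, including each of the 12 single libraries left out, and the lowest adjusted p of a member was 0.0776, for Actc1 without control lung 1. Of 218 values of members, 215 kept their direction. Their size was less stable. With array quality weights the log2 fold change of Myh6 was -0.13 in place of -1.19, that of Tnnt2 -0.02 in place of -0.63, that of Myl7 -0.65 in place of -1.55 and that of Nppa -0.71 in place of -1.69, and that of Actc1 -1.34 in place of -1.54. With 1 library left out, Myh6 ranged from -1.87 (without control lung 3) to -0.61 (without knockout lung 6), Tnnt2 from -1.12 to -0.12 (the same 2 lungs) and Nppa from -2.33 (without control lung 3) to -1.0032 (without control lung 4). The 3 that reversed were those of Myh6 (0.0317), Tnnt2 (0.38) and Tnni3 (0.0245) with heart muscle content as a covariate. Under that covariate Myl1 (0.14), Mybphl (0.0364), Ephx2 (0.0311), Csrp3 (0.38), Ckmt2 (0.15), Tnnc1 (0.0156) and Art1 (0.0314) also reversed, and with array quality weights Csrp3 (0.17) did. Of these genes only Csrp3 and Tnnc1 are part of the covariate, and the cause of the reversal with quality weights was not tested. The count of members at an unadjusted p of at most 0.05, which was 2, was 1 with a pseudocount of 0.1, with quantile normalization, without a filter or over genes averaging at least 5 TPM (8 members tested), and 0 with median centring, array quality weights or the covariate. With 1 library left out it ranged from 0 to 7, with 7 without control lung 3 and 0 without control lungs 2, 4 or 5 or knockout lungs 3, 5 or 6. With the replicate block it was 2. The replicate numbers are not said to pair the lungs. Correlations of same-numbered deviations ran from -0.29 to 0.05, which cannot show whether such lungs were handled together. The median log2 fold change of all genes tested was 0.10 and was -0.01 with median centring. Of 978 values of 45 other named genes, 876 kept their direction and side of the threshold, 86 no longer passed, 8 passed only then and 8 reversed. The depth behind the TPM is unknown, so that values near 0 have no stated precision.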
